A study of Drosophila melanogaster with 6 samples.

Results

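CAP-D3 peaks that lay well inside very long genes were counted gene by gene. A peak was taken when it was shorter than 800 bp, overlapped no IgG peak, and had its midpoint in a protein-coding gene spanning at least 50 kb on chromosome arms 2L, 3L or 3R, more than 1000 bp from both gene ends. Of the 22108 CAP-D3 peaks deposited, 21345 were shorter than 800 bp, 18513 of these overlapped no IgG peak, and 13208 of these lay on the 3 arms. The rule left 2053 peaks, 15.5% of the 13208. The 3 arms hold 179 such long genes among 8794 protein-coding genes, with 53 on 2L, 63 on 3L and 63 on 3R. The deposited list reaches down to a score of 2, where the score is −log10 of a MACS probability. The paper counted its binding sites at a stricter cutoff, equal to a score of 10 if the probability is p. Of the 2053 peaks, 828 (40.3%) had a score of at least 10.

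By the labels, the peaks come from ChIP-seq in S2R+ cells, an untreated Drosophila cell line described there as embryonic and of the Oregon R strain. The paper names S2 cells instead, and more ChIP experiments for each antibody than the labels list. Chromatin cut with micrococcal nuclease was precipitated with the CAP-D3 antibody YZ384 (2 samples in the labels) or with normal rabbit IgG (2 samples), and input chromatin that was not precipitated (2 samples) was the background. The authors called peaks against input and deposited 1 list for each antibody, with no values for single experiments, so no number below carries an error between experiments and no p-value is given. Intervals are exact 95% Poisson intervals, or exact conditional intervals for ratios, which cover the error of counting alone and take peaks to be independent of each other. Depth is unknown, because read counts are not part of the lists, and no expression values were available against which the cell type could be checked.

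CAP-D3 is a subunit of Condensin II, a ring-shaped complex built on a pair of SMC ATPases that folds and compacts chromosomes. Outside mitosis, Condensin II helps to keep chromosome territories apart and limits the pairing of homologous chromosomes in flies. The longest genes of the fly consist mostly of introns, and many encode transcription factors, RNA-binding proteins, and cell surface proteins of neurons and muscle, with enhancers and smaller genes nested within them. Genes close to the centromeres lie in or beside heterochromatin, and some of them have unusually large introns.

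Within the long genes CAP-D3 peaks were spread thinly. The 2053 peaks fell in 17743.7 kb of gene interior (the gene less 1000 bp at each end), a density of 0.116 peaks per kb (0.111 to 0.121), or 1 peak in 8.64 kb. Of the 179 long genes, 178 held at least 1 peak. The median gene held 10 peaks, the quartiles were 6 and 16, and the highest was 51. The median density of a gene was 0.131 peaks per kb, with quartiles of 0.0771 and 0.186 and a range from 0 to 0.385. No small group of genes carried the peaks, since the 10 genes with the most peaks together held 337 of them (16.4%). Where long genes overlap each other, a peak was counted for each gene and once in the pooled density. This concerned 77 peaks, and the 27 peaks of still life (sif) are also the 27 peaks of CG46320, which lies within it.

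**Figure D1:**
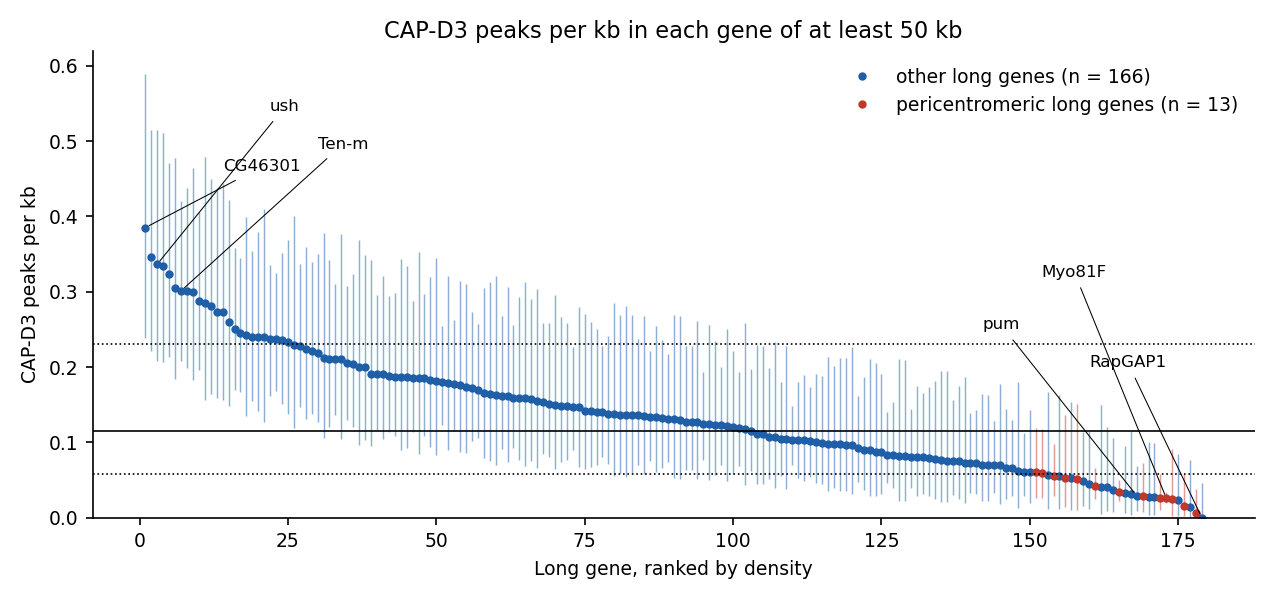
CAP-D3 peaks per kb (vertical axis) in each of the 179 long genes, ranked from the densest to the sparsest, with exact 95% Poisson intervals as vertical lines. The solid line is the pooled density of 0.116 and the dotted lines are 2 and 0.5 times that value; the 13 pericentromeric genes, in red, all lie in the lower end of the ranking.

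A gene was called dense at 2 or more times the pooled density and sparse at 0.5 times or less. By this rule 25 genes were dense, 14% of the 179, and 27 were sparse, 15.1%. The same rule in 440 genes of 20 to 50 kb, against their own pooled density, called 8.41% dense and 23.4% sparse, but these genes held a median of only 5 peaks, so the shares are not measured with the same precision. Counting error alone left most long genes unresolved, as the interval of 122 of the 179 genes included the pooled density, 36 lay wholly above it and 21 wholly below it. The pooled density was itself lowered by the 13 genes next to the centromeres described below. Against the density of the other 166 genes, a comparison chosen after seeing the data, 10 genes were dense, all of them among the 25, and 25 were sparse, 16 of them among the 27.

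The densest gene was CG46301 on 2L, with 21 peaks in 54.5 kb (0.385 peaks per kb, 0.239 to 0.589). Its peaks were spread over its whole length, with 3, 4, 6, 3 and 5 in 5 equal parts of the gene interior taken from the left end, and the longest stretch without a peak was 6.40 kb, the shortest such stretch of any long gene. The second was bitesize (btsz) on 3R, which encodes a synaptotagmin-like protein of the apical cell membrane. It held 24 peaks in 69.4 kb (0.346, 0.222 to 0.515), and 7 and 9 of these lay in the first and the second of 5 equal parts. CG14459 on 3L held 21 peaks in 62.8 kb (0.334, 0.207 to 0.511), and CG46320 held 27 in 83.5 kb (0.323, 0.213 to 0.471). The gene sif, which encodes an exchange factor that activates the small GTPase Rac, reached 0.301 with the same peaks in its longer span of 91.7 kb. The intervals of these genes overlap widely, and their order among themselves is not resolved. IgG peaks lay in these genes too, with 7 in CG46301, 3 in btsz, 9 in CG14459 and 5 in sif. In CG46301 and in CG14459, 6 of 27 CAP-D3 peaks shorter than 800 bp were removed for touching an IgG peak.

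The gene u-shaped (ush) on 2L, which encodes a zinc finger partner of GATA factors that acts in blood cells and in the wing disc, was the third in density. It held 21 peaks in 62.3 kb (0.337 peaks per kb, 0.209 to 0.515), and they were not evenly placed, since 10 of the 21 lay in the last 12.5 kb of the gene interior. From 530614 to 538982 on 2L, 10 peaks followed each other with scores of 18.52, 15.01, 5.07, 7.12, 17.88, 10.32, 10.37, 8.72, 14.2 and 8.21. The score is −log10 of the MACS probability, so these peaks ranged from weak to strong within one cluster. A further group of 5 peaks stood near the other end of ush, between 477061 and 483845, and its strongest peak, from 482264 to 482744, had the highest score in the gene (18.64). Only 1 IgG peak lay in ush, from 509378 to 509627, outside both clusters. The flanks of ush were dense as well, with 46 peaks in the 100 kb made up of 50 kb on each side, the highest flank density of the 179 genes.

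The remaining genes among the 10 densest were dpr11 on 3R, Ten-m on 3L, CG42342 on 3R and CG45263 on 3R. The gene dpr11, which encodes an immunoglobulin-domain surface protein of neurons, held 19 peaks in 62.2 kb (0.306 peaks per kb, 0.184 to 0.477). Ten-m, a teneurin that guides partner matching between neurons, held 34 peaks in 112.8 kb (0.301, 0.209 to 0.421), and 14 of these lay in its first 22.6 kb. CG42342 held 20 peaks in 66.6 kb (0.183 to 0.464 peaks per kb) and CG45263 held 32 in 111.3 kb (0.288, 0.197 to 0.406). The other 15 dense genes, named after their values were seen, ranged from 0.285 in dpr3 to 0.233 in prospero (pros), and were, in that order, dpr3, klg, trv, CG34347, CG4374, Svil, Ptp61F, CG31145, Gfrl, CG17839, Fife, dpy, SKIP, RhoGEF64C and pros. The spans of the 25 dense genes ran from 51.1 to 162.3 kb. Of the dense genes, 4 lie on 2L, 9 on 3L and 12 on 3R, among 53, 63 and 63 long genes there. Of the 27 sparse genes, 6, 14 and 7 lie on these arms.

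**Figure D2:**
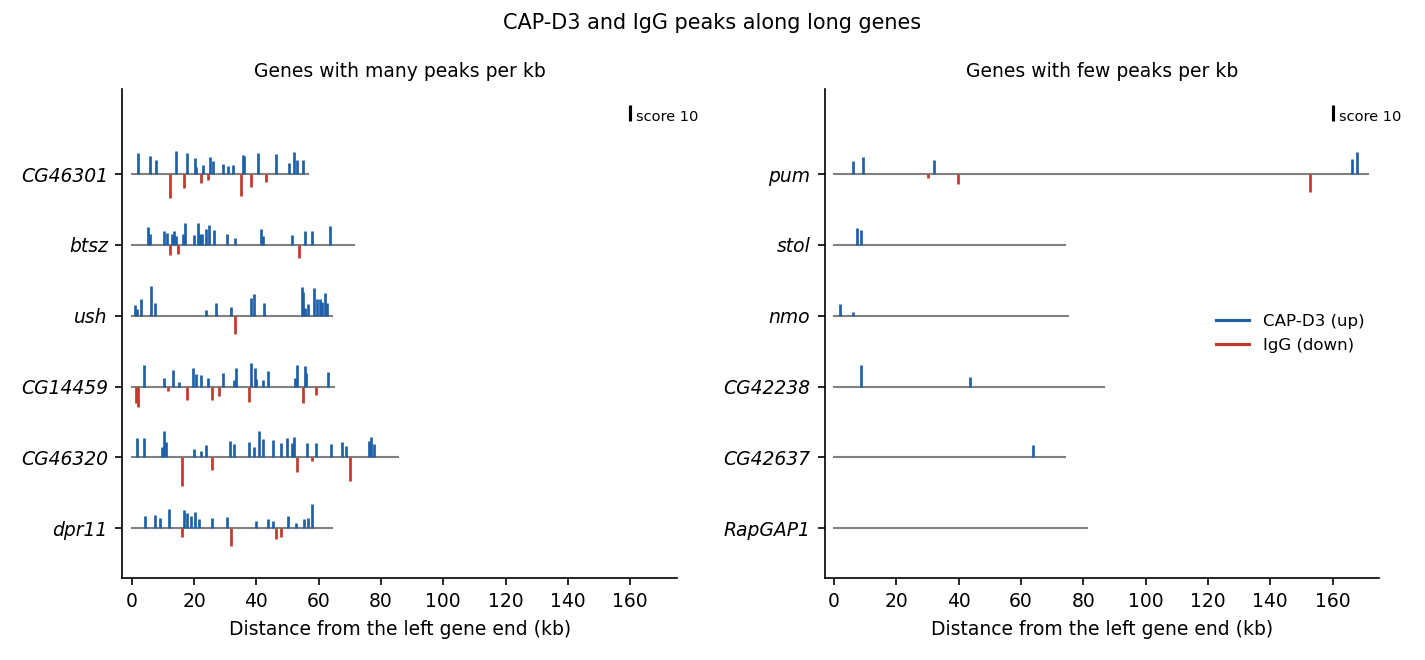
Positions of CAP-D3 peaks (blue, upwards) and IgG peaks (red, downwards) along the 6 densest long genes (left) and the 6 sparsest long genes away from the centromeres (right). The horizontal axis is the distance from the left gene end in kb and the height of a line is the peak score, with a bar for a score of 10. CAP-D3 peaks that touch an IgG peak are not drawn. In pumilio, CAP-D3 peaks that passed the rule stand at both ends, with 134 kb free of such peaks in between.

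At the other end of the ranking, RapGAP1 on 2L, which encodes a protein that switches off the small GTPase Rap1, held no peak in 79.2 kb. Its exact Poisson interval runs from 0 to 0.0466 peaks per kb, and the limit of 3 counts that a count of 0 allows is 0.0379, both below the pooled density. No CAP-D3 peak shorter than 800 bp was removed from RapGAP1 for touching an IgG peak, and it held no IgG peak either. Its flanks were sparse too, with 3 peaks in 100 kb. CG42637 on 3L held 1 peak in 72.0 kb (0.0139 peaks per kb, 0.000351 to 0.0773), although its flanks held 30 in 100 kb. CG42238 on 2L held 2 peaks in 84.6 kb (0.0236). Thus sparse genes occurred both in sparse and in well-covered surroundings.

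In several sparse genes the few peaks stood close to one end. In nemo (nmo) on 3L, which encodes a protein kinase of the Wnt and other pathways, both peaks lay 1.75 and 5.94 kb from the left end, and the next 68.2 kb held none. In stolid (stol) on 2L, which encodes an auxiliary subunit of calcium channels, both peaks lay 7.26 and 8.49 kb from the left end and 64.6 kb were free. The gene pumilio (pum) on 3R, which encodes a translational repressor, held 5 peaks in 169.3 kb (0.0295 peaks per kb, 0.00959 to 0.0689). Of these, 3 lay within 31.9 kb of the left end and 2 lay 166.3 and 167.7 kb from it. The 134.4 kb between them formed the longest stretch without a counted peak in any gene away from the centromeres. In pum 2 of 7 CAP-D3 peaks shorter than 800 bp were removed for touching an IgG peak. Its IgG peaks lay 30.3, 39.7 and 152.9 kb from the left end, the last 2 within this stretch. In polychaetoid (pyd) on 3R, the fly ZO-1 of cell junctions, all 5 counted peaks lay within 12.5 kb of the left end. The remaining 91.3 kb held none that passed the rule. Another 2 CAP-D3 peaks shorter than 800 bp were removed from pyd for touching an IgG peak. The IgG peaks of pyd lay 13.3 and 49.5 kb from the left end. The gene pyd was named after its values were seen.

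Free stretches of that size were uncommon. Free means without a peak that passed the rule, and CAP-D3 peaks removed for touching an IgG peak can lie in such stretches. The longest stretch without a peak had a median of 22.4 kb over the 179 genes. It exceeded 50 kb in 24 genes, of which 10 were pericentromeric, and exceeded 100 kb in 3 genes, pum and the pericentromeric genes Myo81F and lovit. Neighboring peaks within the same gene were a median of 3664 bp apart, 309 of 1952 neighbors (15.8%) were less than 1 kb apart, and 139 (7.12%) were more than 20 kb apart.

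The clearest division among long genes was by position on the arm. In the 13 pericentromeric genes (those centered beyond 22 Mb on 2L, beyond 23 Mb on 3L or before 4 Mb on 3R) 143 peaks lay in 4425.7 kb, a density of 0.0323 peaks per kb (0.0272 to 0.0381). In the other 166 genes 1910 peaks lay in 13318 kb, a density of 0.143 (0.137 to 0.150). The pericentromeric genes therefore made up 24.9% of the long-gene interior and held 6.97% of its peaks, and their density was 0.225 times that of the others (0.189 to 0.267). The kb counted are those of the whole interior, and the share of it on which reads can be placed was not measured. None of the 13 was dense and 11 were sparse, and the highest of them, CG40006 on 2L at 0.0606, was still below the pooled density. IgG peaks were also fewer in these genes, but to a smaller extent, at 0.0194 against 0.0345 IgG peaks per kb (0.564 times, 0.443 to 0.711). The share of CAP-D3 peaks shorter than 800 bp that was removed for touching an IgG peak was 25.1% there and 14.7% in the other long genes. Before this removal the density in the pericentromeric genes was 0.257 times that in the others (0.220 to 0.298). Sequence more than 1000 bp from every gene held 2223 peaks in 19487.7 kb (0.114 per kb). Without the pericentromeric regions it held 2066 in 14426.1 kb (0.143). Genes of 20 to 50 kb held 2169 peaks in 12705.4 kb, and 2158 in 12441.9 kb without these regions. The low pericentromeric density was thus not particular to long genes.

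The largest pericentromeric gene was Myo81F on 3R, an unconventional myosin gene and the longest protein-coding gene on the 3 arms, with 51 peaks in 1963.9 kb. This was the highest number of peaks in any long gene but a density of only 0.0260 peaks per kb (0.0193 to 0.0341), with 8, 8, 16, 12 and 7 peaks in 5 equal parts from the left end and a free stretch of 217.2 kb. Its strongest peak, from 1365418 to 1365667 on 3R, had a score of 27.75 and lay 752 bp from the nearest IgG peak. Pzl on 3R, which encodes a Piezo-like channel, held 24 peaks in 707.4 kb (0.0339, 0.0217 to 0.0505). On 3L, lovit, which encodes a transporter of photoreceptor synapses, held 18 in 432.0 kb (0.0417), and Snap25, which encodes a SNARE protein of synaptic vesicle fusion, held 6 in 223.0 kb (0.0269). Parp1 on 3R, which encodes a poly(ADP-ribose) polymerase, held 2 in 123.7 kb (0.0162). The nicotinic receptor gene nAChRalpha4 on 3L held 2 in 78.8 kb (0.0254), and CG40470 on 3L held 1 in 144.6 kb (0.00692). In Snap25, Parp1 and CG40470 the IgG list held 8, 4 and 3 peaks, beside 9, 4 and 4 CAP-D3 peaks shorter than 800 bp, of which 3, 2 and 3 were removed for touching an IgG peak.

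Outside the pericentromeric regions, density also differed between arms. It was 0.123 peaks per kb on 2L (0.112 to 0.134), 0.142 on 3L (0.131 to 0.153) and 0.163 on 3R (0.152 to 0.175). The ratio of 2L to 3R was 0.755 (0.673 to 0.846) and that of 3L to 3R was 0.869 (0.781 to 0.966). Within the long class density did not rise or fall steadily with gene length. In genes of 50 to 60, 60 to 80, 80 to 100, 100 to 150 and over 150 kb the pooled densities were 0.139, 0.158, 0.121, 0.156 and 0.116, and over the 166 genes Spearman's rho of density against length was −0.03 (Pearson's r −0.06), given as a description only. Near the limit of the class, the 3 longest genes below 50 kb, Plc21C, Dyrk2 and Octalpha2R, had densities of 0.252, 0.0630 and 0.0626. The 3 shortest above it, Sytbeta, ab and pHCl-1, had 0.0414, 0.186 and 0.0619. At the limit of peak length, 8 CAP-D3 peaks in the long genes were shorter than 800 bp by up to 50 bp, and 12 were of 800 bp or up to 50 bp longer.

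Long genes were compared with shorter genes and with sequence more than 1000 bp from every gene on the same arms. The pooled density of 0.116 peaks per kb in long genes was below that in genes of 20 to 50 kb (0.171, ratio 0.678, 0.638 to 0.720) and in genes of 5 to 20 kb (0.226, ratio 0.512, 0.482 to 0.543), and close to that outside genes (0.114, ratio 1.01, 0.955 to 1.08). With the pericentromeric regions left out of every class the ratios were 0.827 (0.777 to 0.880), 0.624 (0.587 to 0.663) and 1.00 (0.941 to 1.07). The IgG peaks too were sparser in long genes than in the shorter genes, and the interval of their ratio to sequence outside genes included 1. Without the pericentromeric regions the density of IgG peaks in long genes was 0.831 times that in genes of 20 to 50 kb (0.731 to 0.944), 0.693 times that in genes of 5 to 20 kb (0.610 to 0.788) and 0.954 times that outside genes (0.840 to 1.08). For each of these 3 comparisons the intervals of the CAP-D3 ratio and of the IgG ratio overlap.

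**Figure D3:**
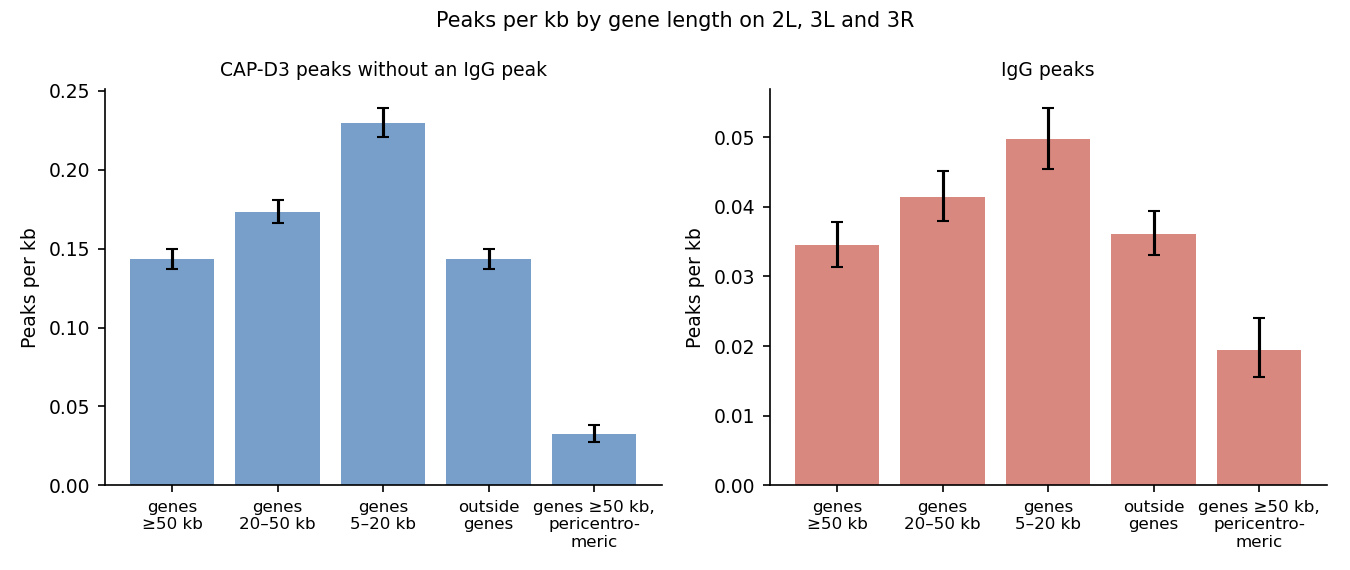
CAP-D3 peaks per kb (left) and IgG peaks per kb (right) by class of gene length, with exact 95% Poisson intervals; the first 4 bars of each panel leave out the pericentromeric regions. Both lists rise from the long genes (0.143 and 0.0345) to genes of 5 to 20 kb (0.230 and 0.0497), and both are lowest in the 13 pericentromeric genes.

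Gene by gene, CAP-D3 and IgG peaks tended to be dense in the same long genes. Over the 166 genes away from the centromeres Spearman's rho between the densities was 0.62 (Pearson's r 0.59). This is a description across genes, and the peaks of both lists were called against input. What the 2 lists have in common in these genes was not tested, and base composition was not measured. The 25 dense genes held 544 CAP-D3 peaks and 137 IgG peaks, or 3.97 CAP-D3 peaks for each IgG peak (3.29 to 4.82). The 16 sparse genes away from the centromeres held 43 and 10, or 4.30 (2.13 to 9.60). The 125 genes in between had 4.24 (3.75 to 4.81). Between dense genes and these 16 sparse genes the CAP-D3 density differed 7.99 times (5.85 to 11.2), a difference that the rule for calling them fixes, and the density of IgG peaks differed 8.65 times (4.56 to 18.4). The IgG list entered the rule through the removal of overlapping CAP-D3 peaks, so the IgG density is not independent of the calls and is given as a description. Of the 16 sparse genes 10 held no IgG peak, and of the 25 dense genes 1 held none, CG17839 on 3L with 18 CAP-D3 peaks in 75.1 kb. The pericentromeric genes stood apart, with 1.66 CAP-D3 peaks for each IgG peak (1.26 to 2.20).

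In single genes the counts lay on both sides of the pooled ratio of CAP-D3 to IgG peaks. No interval was computed for this ratio within a gene, so counting error is not allowed for. In ush 21 CAP-D3 peaks stood beside 1 IgG peak, and in Gfrl on 3R, which encodes a receptor-like protein, 25 stood beside 1. In sallimus (sls) on 3L, which encodes a titin-like protein of muscle, 11 CAP-D3 peaks stood beside 14 IgG peaks, the highest IgG density of the long genes (0.189 per kb), after 8 of 19 CAP-D3 peaks (42.1%) had been removed for touching an IgG peak. In dumpy (dpy) on 2L, which encodes a giant extracellular matrix protein, 32 stood beside 20. The rule against touching an IgG peak removed 11 of 43 CAP-D3 peaks (25.6%) in dpy and 1 of 22 in ush. Over all long genes it removed 377 of 2430 (15.5%), near the 14.9% in genes of 20 to 50 kb.

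**Figure D4:**
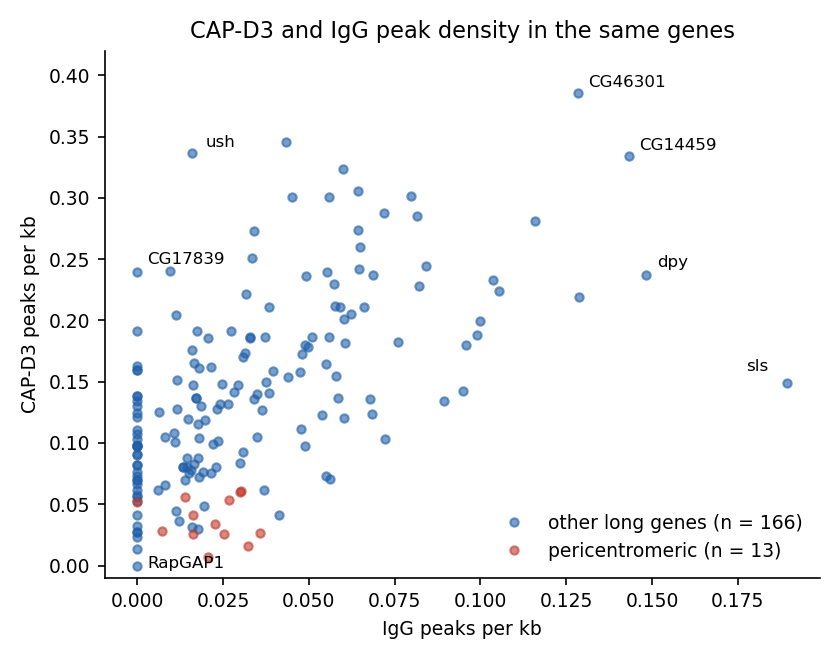
CAP-D3 peaks per kb (vertical axis) against IgG peaks per kb (horizontal axis), 1 point for each of the 179 long genes. Genes rich in CAP-D3 peaks also tend to be rich in IgG peaks (Spearman's rho 0.62 over the 166 blue points), ush and CG17839 are high with few or no IgG peaks, and the 13 pericentromeric genes in red are low in CAP-D3 peaks at all their IgG densities.

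Away from the centromeres, long genes were mostly sparser than the sequence on either side of them. The density inside was lower than in the 50 kb on each side in 127 of the 179 genes, and in 122 of the 166 away from the centromeres, whereas it was higher inside in 8 of the 13 pericentromeric genes. The flanks had a median of 0.170 peaks per kb, and Spearman's rho between inside and flank was 0.51 over the 166 genes (Pearson's r 0.51), again as a description. Dense genes had flanks of 0.150 to 0.460 peaks per kb with a median of 0.250, and the inside was above the flank in 14 of the 25. The 16 sparse genes away from the centromeres had flanks with a median of 0.135, from 0 around ed to 30 peaks in 100 kb around CG42637, and in 15 of them the inside was below the flank. The calls favor both counts. The exception among the sparse genes was echinoid (ed) on 2L, which encodes an adhesion receptor and held 3 peaks in 82.4 kb while its flanks held none in 100 kb.

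Within a long gene, peaks were most frequent a few kb from the gene end. In the 166 genes away from the centromeres the density was 0.128 peaks per kb at 1 to 2 kb from the nearer end (0.0919 to 0.174), 0.208 at 2 to 5 kb (0.180 to 0.239), 0.166 at 5 to 10 kb, 0.141 at 10 to 20 kb, 0.132 at 20 to 40 kb and 0.131 beyond 40 kb (0.117 to 0.147). The density at 2 to 5 kb was 1.58 times that beyond 20 kb (1.35 to 1.84). For IgG peaks the same ratio was 1.16 (0.803 to 1.64), and the intervals of the 2 ratios overlap. Of the 166 genes, 101 were denser within 10 kb of an end than farther in, 64 were less dense and 1 was equal. In genes of 20 to 50 kb the density fell with distance too, from 0.206 at 2 to 5 kb to 0.156 at 10 to 20 kb and 0.0837 (0.0593 to 0.115) at 20 to 25 kb, a distance that only the longest of these genes reach. At 1 to 2 kb it was 0.214 (0.184 to 0.248), against 0.128 in the long genes. Ends were not split into starts and stops, since strand was not used here.

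**Figure D5:**
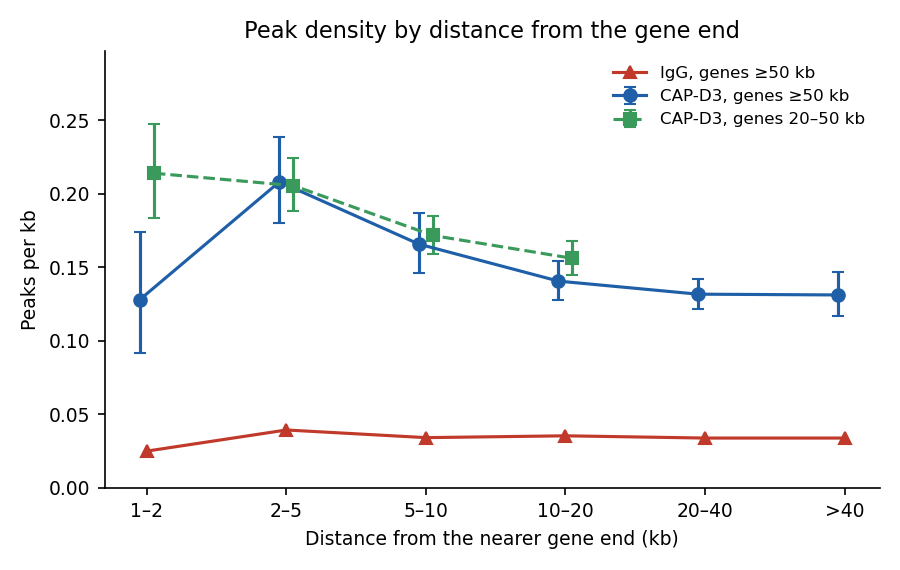
Peaks per kb (vertical axis) by distance from the nearer gene end (horizontal axis, kb) for CAP-D3 in long genes away from the centromeres (blue), CAP-D3 in genes of 20 to 50 kb (green, drawn up to 20 kb) and IgG in the same long genes (red). Bars are exact 95% Poisson intervals, drawn for CAP-D3 only; the blue line is highest at 2 to 5 kb (0.208) and level beyond 20 kb (0.132 and 0.131).

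Peaks fell at second genes at close to the share of sequence there. Away from the centromeres 72 of 1910 peaks (3.77%) lay inside another protein-coding gene nested in or overlapping the long gene, 197 (10.3%) lay within 1000 bp of an end of another gene, 24 (1.26%) lay in a noncoding gene only, and 1617 (84.7%) lay in none of these. These places made up 3.01%, 9.34%, 1.27% and 86.4% of the gene interior. The densities were 0.180 (0.140 to 0.226), 0.158 (0.137 to 0.182), 0.142 (0.0909 to 0.211) and 0.141 peaks per kb (0.134 to 0.148). The interval of the first lies partly above that of the last and overlaps it.

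In score and width the peaks were like others on the 3 arms. Their median score was 8.94 (quartiles 6.62 and 11.81, range 2.14 to 34.02), against 9.06 for the 11155 other peaks that passed the same length and IgG rules. A score of at least 10 was reached by 828 (40.3%) against 41.0% of the others, and a score of at least 20 by 46 (2.24%) against 2.31%. The median width was 308 bp against 314 bp. Peaks in the pericentromeric genes had a median score of 8.05, and 32.9% of them reached 10. The CAP-D3 peaks in long genes that were set aside for touching an IgG peak scored higher, with a median of 10.15 and 51.2% at 10 or above. Peaks in dense genes had a median score of 9.02.

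The 5 strongest peaks lay in 5 different genes, none of them dense or sparse. The highest score, 34.02, belonged to a peak of 289 bp on 3R from 18532864 to 18533152 in fruitless (fru), which encodes a BTB zinc finger factor of sex-specific neurons. It lay 12.6 kb from the nearer gene end and 6920 bp from the nearest IgG peak. The gene held 22 peaks in 129.3 kb (0.170 peaks per kb, 0.107 to 0.258), and a second one, from 18488645 to 18488905, scored 26.27. The next was on 2L from 8594287 to 8594561 in Sema1a, a transmembrane semaphorin of axon guidance, with a score of 32.88 and at 52.3 kb from the nearer end. It was followed by a peak on 3L from 3526620 to 3526869 in Eip63E, a cyclin-dependent kinase, with 32.77. A peak on 3R from 28467083 to 28467370 in beat-VI, an immunoglobulin-domain protein of the Beat family, scored 31.59, and one on 3L from 17582206 to 17582459 in Eip74EF, an ETS factor induced by ecdysone, scored 30.23. The nearest IgG peak was 6920 bp or more away from each of the 5, and the nearer gene end 7.59 kb or more.

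The long genes were then read by what they encode, using 11 lists of 413 genes found in the annotation. They include 67 of the long genes, and 112 long genes are on no list, of which 19 were dense and 21 sparse, with a median density of 0.130 peaks per kb. All 179 long genes together had a median of 0.131, with 14% dense and 15.1% sparse. The lists hold few long genes each and none was tested, so nothing is called particular to a list.

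The list of homeobox and Hox factors held 5 long genes, with a median density of 0.188 peaks per kb. Of these, 1 was dense (pros, an asymmetric cell fate factor of neuroblasts, at 0.233 peaks per kb) and none sparse. The 5 include bab1 (0.112), which is not a homeobox gene and was named after its values were seen. The Hox gene Ubx on 3R held 17 peaks in 75.8 kb (0.224, 0.131 to 0.359). They began with a run of 8 peaks between 16659875 and 16678383, with scores of 5.75 to 12.86. The Hox gene Antp, also on 3R, held 19 peaks in 101.0 kb (0.188, 0.113 to 0.294), of which the strongest, from 6936653 to 6936919, scored 22.24. Both genes were also rich in IgG peaks, with 8 in Ubx and 10 in Antp, and the strongest IgG peak of Antp, from 6911727 to 6911994, scored 21.35. The cofactor gene homothorax (hth) held 16 peaks (0.123) beside 7 IgG peaks.

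Among 10 long genes of the list of other transcription factors 1 was dense (ush) and 2 were sparse, with a median of 0.132. Of those with the longest spans, fru had 0.170 peaks per kb, the nuclear receptor gene Eip75B 0.134, the coactivator gene taiman (tai) 0.0614 and bunched (bun), a TSC22-family gene, 0.0449. The gene bun held only 4 peaks, but 1 of these, on 2L from 12533957 to 12534225, scored 26.3 and was the tenth strongest of all the long-gene peaks. Pdp1, the other sparse gene, held 3 peaks at 14.9 to 19.8 kb from the left end, all with scores of at least 11.98, and was named because it completes the count.

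RNA-binding protein genes were the list with the lowest median among those with 10 or more long genes, at 0.0935 peaks per kb over 12 genes, with none dense and 1 sparse. Several of these proteins control splicing or translation. In bru3 on 3L, the longest gene away from the centromeres, 29 peaks in 279.5 kb gave 0.104 peaks per kb (0.0695 to 0.149). In Rbp6, of the Musashi family, 32 peaks in 177.4 kb gave 0.180 (0.123 to 0.255), and 20 of them had a score of at least 10. The polypyrimidine tract-binding gene heph had 14 peaks (0.0841), with 5, 6, 2, 1 and 0 in 5 equal parts from the left end. The sparse gene was pum.

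The 14 long genes of cadherins and adhesion receptors had a median of 0.129, with 2 dense (Ten-m and klg) and 1 sparse (ed). Con, a leucine-rich repeat adhesion protein of muscle targeting, had 0.178 peaks per kb, the cadherin gene CadN 0.0928 and fred 0.138. The 10 axon guidance genes had a median of 0.162 with none dense or sparse, and side-III, Ptp99A, Sema1a and Lar had 0.222, 0.186, 0.102 and 0.0697. The 3 long genes of the dpr family spanned most of the range of the long genes, from 0.306 in dpr11 and 0.285 in dpr3 to 0.0615 in dpr6, which held 10 peaks in 162.7 kb. The interval of dpr6 (0.0295 to 0.113) lay below those of the other members.

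Of 6 ion channel genes none was dense and 1 was sparse (the pericentromeric nAChRalpha4), with a median of 0.137. The potassium channel gene Shab had 0.176 peaks per kb, and the nicotinic receptor genes nAChRalpha1 and nAChRalpha6 had 0.180 and 0.0990. The receptor genes 5-HT2B and RYa-R had 0.201 and 0.136. Among 5 muscle and cytoskeleton genes none was dense and Myo81F was sparse, and Msp300, sls and the dystrophin gene Dys had 0.173, 0.149 and 0.119. The list of blood cell genes held 3 long genes, ush (0.337), Ten-m (0.301) and the ETS factor gene pnt (0.130), and pnt was also the only long gene of the list on receptor tyrosine kinase signalling. These 3 genes are on other lists as well, so they add no separate values.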

How the data were processed

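CAP-D3 ChIP, IgG ChIP and input were measured, which the labels give as 2 samples each of S2R+ cells. The submitters' processing notes name CASAVA 1.4, Trim Galore 0.3.7, cutadapt 1.8, FastQC 0.11.3, Bowtie 1.0.0 and MACS2 2.0.9. The genome build, and how the samples entered each list, are not given in the sources used here. The authors deposited 1 peak list for each antibody against input, whose scores are −log10 values of a probability from MACS (whether p or q is not stated). The lowest score was 2 in both lists, so weaker regions are missing, and more deeply sequenced libraries give more and higher-scoring peaks.

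Starts were converted to count from 1. Gene spans came from the RefSeq annotation of Release 6, and 2.84% of CAP-D3 midpoints on the 3 arms lay within 150 bp of a gene end, against 8.11 to 9.05% after moving peaks by 500 to 5000 bp. Overlap meant at least 1 bp. Densities and ratios were given exact 95% intervals. Each base of a class comparison belonged to the longest gene covering it. The counting was checked on simulated data. Scripts ran in Python 3.11.15 with scipy 1.17.1, pandas 2.3.3 and numpy 2.4.6, and figures were drawn with matplotlib 3.10.9. Named genes were the 10 densest and 10 sparsest, the 5 longest, the 5 with the most peaks, any without a peak, those of the 5 highest-scoring peaks, and up to 4 of each list by span. Genes beyond this rule were named after their values were seen. The members and lists were chosen with earlier results of these data known. Alternatives varied the score, length, IgG overlap, distance from gene ends, gene span, arm, fold and pericentromeric genes. Planned measures of sequence and of direction along the gene were not run, because no genome or strand was used here.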

Additional observations from a re-analysis of the deposited data

How the results depend on the processing

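The number of peaks in long genes was within 1.5 times of 2053 under 7 of 10 alternatives, and was 828 at a score of at least 10, 46 at a score of at least 20 and 895 in genes of at least 100 kb, as fewer peaks or genes enter. The density ratio of long genes to genes of 20 to 50 kb stayed below 1 under all 10 alternatives. It was 0.844 on 2L alone, 0.750 on 3L alone, 0.561 on 3R alone and 0.827 without pericentromeric genes, and at a score of at least 20 its interval, 0.465 to 1.10, included 1. Dense genes numbered 54 at a fold of 1.5 and 10 without pericentromeric genes, and sparse genes numbered 51 at a score of at least 10 and 45 at a fold of 1.5. At a score of at least 10, 35 genes were dense, 20 of them among the 25, and 24 of the 27 sparse genes stayed sparse. No paired analysis was possible because the experiments of an antibody share 1 list, and leaving out a replicate was not possible for the same reason. Depth is unknown, so a gene with few peaks cannot be told apart from one below the limit of detection.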
